A study of Homo sapiens with 6 samples.

Results

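Long intergenic noncoding RNAs were followed here in MDA-MB-231 cells, a mesenchymal triple-negative breast cancer line, after depletion of UBE3D. The members are the genes whose symbol is LINC and a number and whose mean is at least 50 normalized counts, which gives 55 of the 495 LINC symbols and of the 20115 genes in the authors' deposited gene table. To these were added the readthrough regions of the same names, called downstream-of-gene (DoG) regions, where transcription continues past the annotated end of a gene. The groups were 3 libraries of UBE3D knockdown cells, in which doxycycline induced lentiviral short hairpins against UBE3D, and 3 control libraries of the same line. For the control, neither a hairpin nor doxycycline is stated in the labels. All cells grew in DMEM with fetal bovine serum and antibiotics. Every library is marked as pooled, and no label names separate cultures. The p-values therefore cover only how far these libraries differ, which may be technical variation. The study's title concerns CPSF73, the endonuclease that cuts pre-mRNA at its 3′ end, and the design asks which transcripts and readthrough products changed.

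Long intergenic noncoding RNAs are RNA polymerase II transcripts from between coding genes, usually capped, often inefficiently spliced and mostly kept in the nucleus. Many are cut and polyadenylated by the same complex that ends mRNAs, and others are ended early and removed by the nuclear exosome. In breast cancer lines they are studied as markers and regulators, and some symbols of the class have since turned out to encode small proteins.

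The files hold 1 comparison, knockdown over control, and values per library were not analysed here. Sequencing depth is therefore unknown, and the standard error (SE) of the log2 fold change is the measure of precision. The deposited log2 fold changes are shrunken toward 0, as judged from the values, since the change over its SE does not return the deposited p. UBE3D, the targeted gene, had a log2 change of -0.80 (SE 0.37, adjusted p = 0.00632) with a mean normalized count of 36.7 in the authors' deposited table. Of the fixed markers of the line, AXL, CD44, VIM and MMP14 had means of 11376, 8692, 7835 and 1721 normalized counts, while SPARC had only 82.6. CD44 (-0.26), VIM (-0.34), MMP14 (-1.10) and SPARC (-1.19) were lowered and AXL (0.01) was not past the threshold by the authors' deposited table. Of the genes expected low or mixed, KRT8 had a mean of 3626, above that of MMP14, and EPCAM had 382. GATA3, CDH1, PGR and ESR1 for the oestrogen receptor had means of 80.0, 74.9, 50.2 and 22.2. There CDH1 (1.06, SE 0.39) was raised and EPCAM (-0.67, SE 0.21) was lowered, while KRT8, GATA3, PGR and ESR1 were not past the threshold. Of the 5 fibroblast markers only LUM was raised (1.42, SE 0.31), with means of 14.2 for DCN to 168 for COL1A1. Of the 5 markers of the virus packaging line, L1CAM (-0.28, SE 0.12) and PRAME (-0.82, SE 0.53) were lowered. L1CAM had a mean of 567, above that of EPCAM. PRAME, NEFM, NEFL and SOX2 had means of 26.0, 14.4, 11.6 and 8.42. The blood genes PTPRC and CD14 had means of 43.7 and 15.6, and neither was past the threshold. Their part in the results was not tested.

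Of the 55 members, 3 were higher and 6 were lower in the knockdown by an adjusted p below 0.05 of the authors' deposited table and 46 were not past that threshold. That is 5.45% raised and 10.9% lowered. The background was 7.19% raised and 11.3% lowered among the 11658 genes with the same minimum mean, and 4.62% raised and 7.93% lowered among all rows. Both shares of the members are near those of genes of the same minimum level. The median log2 fold change was 0.05 over the members, against 0.00 over genes of the same minimum mean and -0.03 over all genes. Members were chosen by their mean count, so the 3 nearest above the limit, LINC00842 (50.2), LINC01560 (50.3) and LINC01410 (50.5), are given beside the 3 nearest below it, LINC00938 (49.3), LINC01085 (48.7) and LINC00852 (47.5). Of these 6, LINC01085 alone passed the threshold, with a log2 change of 0.92 (SE 0.28, adjusted p = 0.000382) in the authors' deposited table. The mean is taken over both groups, so a strongly lowered gene can reach the limit mainly through the control libraries, and a raised one mainly through the knockdown.

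**Figure D1:**
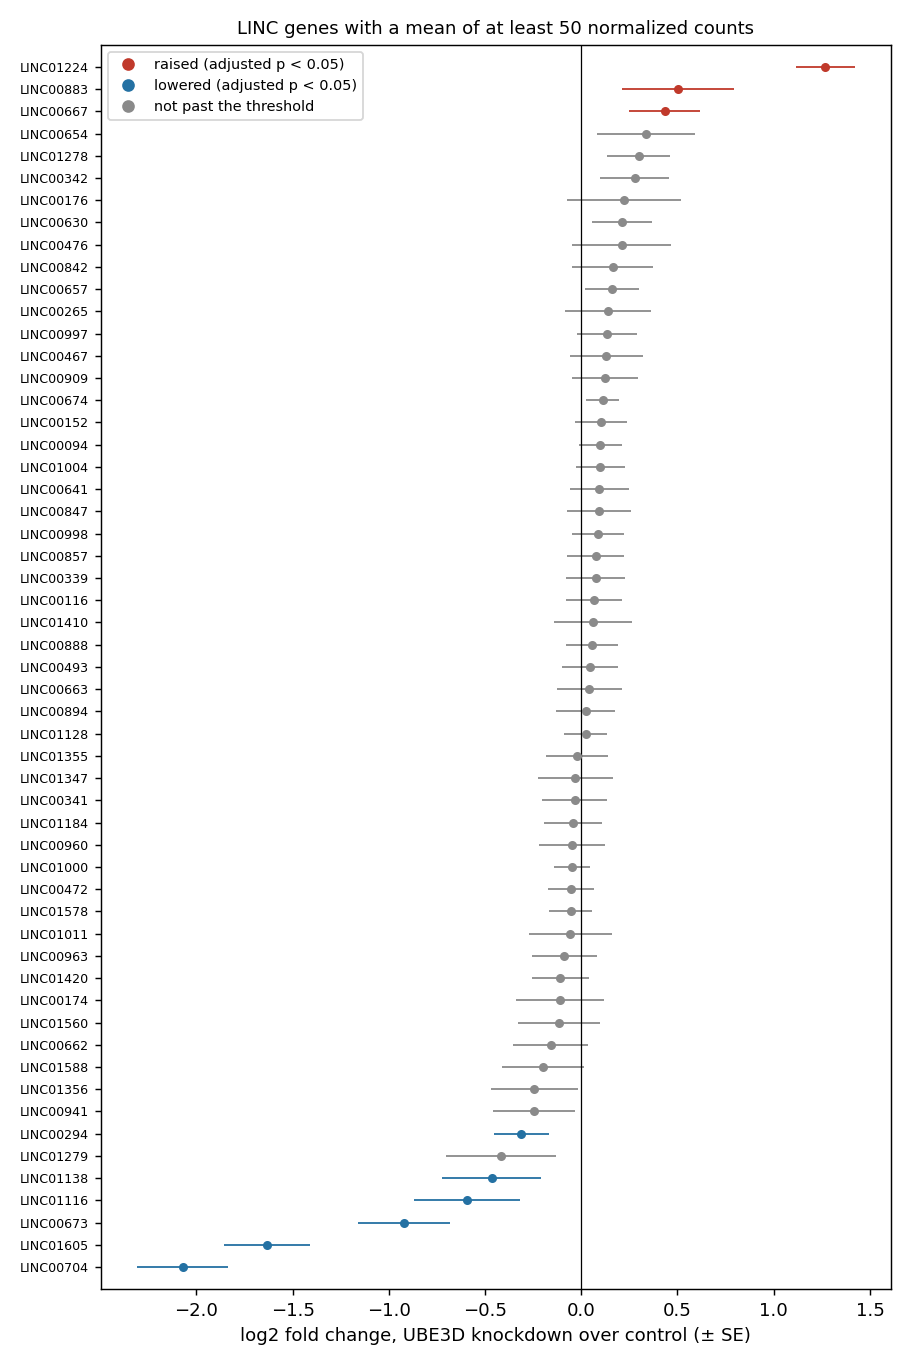
Each point is the authors' deposited log2 fold change of a LINC gene, UBE3D knockdown over control, with its SE as the bar, for the 55 genes at or above a mean normalized count of 50. Most points lie within 0.5 of 0, while LINC01224 stands apart at 1.27 and LINC00704 and LINC01605 at -2.07 and -1.64.

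The lowered members were led by LINC00704, now named MANCR, a lincRNA described in breast cancer cells and named for its association with mitosis. Its log2 change was -2.07 (SE 0.24, adjusted p = 7.46e-18), 4.21-fold lower, with a mean normalized count of 77.9 in the authors' deposited table. It lies on chromosome 10 (4650185 to 4678154, minus strand, GRCh38). LINC01605, on chromosome 8 (37421341 to 37554183, minus strand), was 3.11-fold lower, with a log2 change of -1.64 (SE 0.22, adjusted p = 9.06e-13) in the authors' deposited table. These were the only lowered members past 2-fold. LINC00673, also known as SLNCR1 and described in melanoma invasion, had a log2 change of -0.92 (SE 0.24, adjusted p = 5.75e-05) in the authors' deposited table. In RefSeq it lies on chromosome 17 (72403322 to 72592804), overlapping LINC00511 on the same strand. LINC00511 itself had a mean of 18.5 and a log2 change of -0.54 (SE 0.64, adjusted p = 0.062) in the authors' deposited table, and reads of the overlapping loci could be split between the symbols.

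The other lowered members changed less. LINC01116, near the HOXD cluster on chromosome 2 (176629589 to 176637931), had a log2 change of -0.59 (SE 0.27, adjusted p = 0.0113) in the authors' deposited table. LINC01138, on chromosome 1 (148290889 to 148519604) among the duplicated NBPF genes, had -0.47 (SE 0.26, adjusted p = 0.0349), and reads could be shared between copies there. LINC00294, a transcript of 1 exon on chromosome 11 (33076149 to 33079454), had -0.31 (SE 0.14, adjusted p = 0.0369) in the authors' deposited table. These 3 falls were of 1.51-fold, 1.38-fold and 1.24-fold. They were not past the threshold in a Wald test of the deposited change over its SE (adjusted p = 0.307, 0.55 and 0.315). The 3 larger falls passed in that Wald test (adjusted p of 0.0027 or less). As the deposited changes are shrunken, this ratio is stricter than the authors' test, so a call lost or kept there is no separate check of it.

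The rises were led by LINC01224, on chromosome 19 (23399233 to 23416075, minus strand, 10 exon blocks). It was 2.41-fold higher in the knockdown, with a log2 change of 1.27 (SE 0.15, adjusted p = 2.76e-16) with a mean normalized count of 249 in the authors' deposited table. LINC00883, now named DUBR after the binding of its mouse counterpart upstream of Dppa2, had a log2 change of 0.50 (SE 0.29, adjusted p = 0.0344) in the authors' deposited table. LINC00667, on chromosome 18 (5237826 to 5246508), had 0.43 (SE 0.19, adjusted p = 0.013) there. LINC01224 was the 1 raised member past 2-fold. LINC00883 and LINC00667 lost their calls in the same stricter Wald test on the deposited, shrunken values (adjusted p = 0.598 and 0.222). LINC01224 kept its call there (adjusted p = 1.31e-14).

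The annotated 3′ ends of members are shown because the study is about the cut that makes such ends. They are the last 50 bases of the transcript that reaches farthest in GENCODE 29, 5′ to 3′, with the AATAAA or ATTAAA nearest the end in capitals. These 2 hexamers are the commonest poly(A) signals, which the cleavage complex recognises upstream of the cut.
LINC01224: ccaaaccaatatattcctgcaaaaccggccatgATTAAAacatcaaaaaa
LINC00667: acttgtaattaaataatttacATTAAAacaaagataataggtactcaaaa
LINC00883: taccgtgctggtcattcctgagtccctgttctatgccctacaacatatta
LINC00294: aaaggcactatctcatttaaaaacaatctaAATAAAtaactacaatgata
LINC01138: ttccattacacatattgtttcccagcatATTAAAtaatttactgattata
LINC01116: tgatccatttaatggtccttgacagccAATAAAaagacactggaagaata
LINC00704: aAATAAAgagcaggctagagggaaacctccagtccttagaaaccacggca
LINC00657: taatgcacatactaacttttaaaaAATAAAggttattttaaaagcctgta
LINC00472: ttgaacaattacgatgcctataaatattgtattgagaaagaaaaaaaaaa
LINC00654: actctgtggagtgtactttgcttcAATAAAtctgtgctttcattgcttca

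A hexamer stood in this window, read on the transcript's strand, in 35 of the 51 members with a GENCODE transcript (68.6%), against 75.0% of the 11510 genes with the minimum mean and a transcript. Among those shown with a hexamer, it began 49 bases before the end in LINC00704 and 17 to 29 bases before it in the others. Of the 8 changed members with a transcript, 6 held it, both raised and lowered ones among them, and LINC00883 and LINC01605, whose end is not shown, did not. An annotated end is not a measured one, and a match is a description of these letters only. The ends of LINC00654 and LINC00472 are shown because their readthrough regions rose. The region of LINC00960 rose too, and its end, not shown, held AATAAA beginning 28 bases before it.

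**Figure D2:**
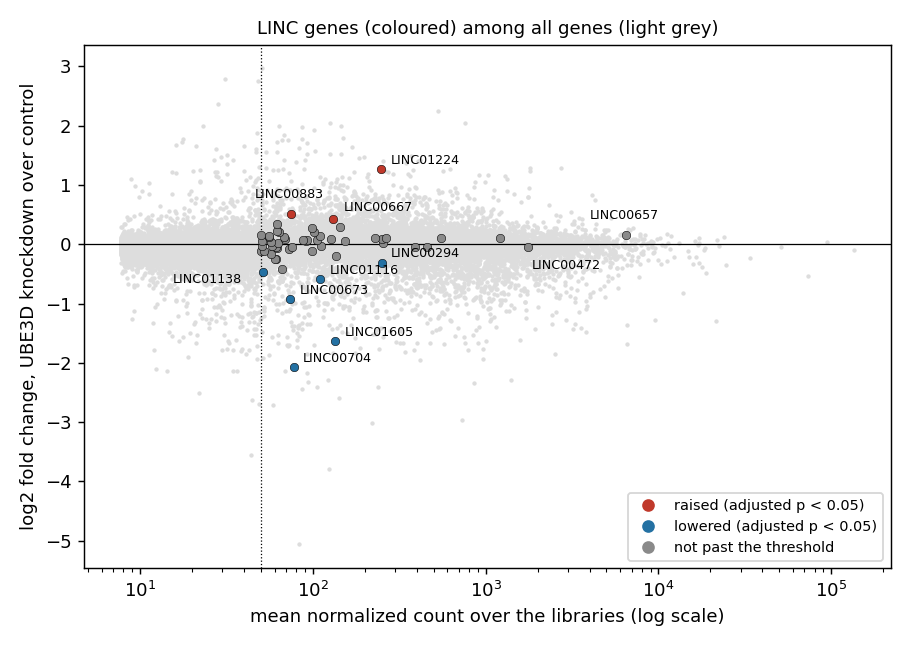
The mean normalized count over the libraries (log scale) is plotted against the authors' deposited log2 fold change, UBE3D knockdown over control, with LINC genes coloured over all genes in light grey and a dotted line at the mean of 50. The most abundant member, LINC00657, lies at 0.16, and the 9 changed members have means between 51.7 and 250.2.

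Levels were compared per kb of annotated exon, as mean normalized count per kb over all libraries. LINC00674, a transcribed pseudogene in GENCODE, had 1644 per kb and LINC00657, now named NORAD, which binds Pumilio proteins and guards chromosome stability, had 1208 per kb. LINC00472, a lincRNA studied in breast cancer, had 509 per kb, LINC01004 had 235 and LINC00493 had 140. These 5 led the order, and the lowest of the 51 members with an exon length was LINC00941 with 3.20 per kb. None of the 5 was past the threshold. Their log2 fold changes in the authors' deposited table were 0.11 (SE 0.08) for LINC00674, 0.16 (SE 0.14) for LINC00657, -0.05 (SE 0.12) for LINC00472, 0.10 (SE 0.13) for LINC01004 and 0.05 (SE 0.15) for LINC00493. The changed members were spread over the order. LINC01605 with 88.8 per kb, LINC00294 with 75.7 and LINC01224 with 75.6 stood directly below these leaders, LINC01116 had 62.1 and LINC00704 40.6, and LINC01138 was near the bottom with 6.89. Of the 8 changed members with an exon length, 5 lay above the members' median of 24.9 per kb. The spread of levels over libraries is not known, so neighbours in this order were not told apart by a test.

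Of 9 lincRNAs known from cancer studies, 5 were members. LINC00673 and LINC01116 fell, as given above. LINC00152, now named CYTOR, had a log2 change of 0.10 (95% interval -0.17 to 0.37) and LINC00963 had -0.09 (-0.42 to 0.24) in the authors' deposited table, beside LINC00657 at 0.16 (-0.11 to 0.43). These intervals, taken from the deposited SE, leave room for small changes in either direction. Of all 46 members that did not pass, every interval lay within 1 log2 unit of 0, and 30 lay within 0.5. These intervals rest on changes shrunken toward 0, so they do not bound the unshrunken changes. Those of LINC01138 and LINC00883 span 0, although both were past the threshold. Only 4 of the 46 had an unadjusted p under 0.05.

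The label was checked against the annotation. GENCODE 29 lists 32 members as lincRNA, 8 as processed transcripts, 3 as transcribed pseudogenes, 2 as antisense genes and 6 as protein coding, and 4 have no GENCODE entry. The 6 coding ones, found under their current symbols, are LINC00116 (MTLN, a mitochondrial microprotein), LINC01420 (NBDY, a microprotein of the mRNA decapping complex), LINC00998 (SMIM30), LINC00493 (SMIM26), LINC00094 (BRD3OS) and LINC00176 (C20orf204). For these genes the name of the class does not hold. None of the 6 was past the threshold, with log2 fold changes from -0.11 for LINC01420 (SE 0.15) to 0.22 for LINC00176 (SE 0.30) in the authors' deposited table. LINC01279 and LINC00341 are now listed as synonyms of the coding genes CCDC80 and SYNE3, which have rows of their own. LINC01279 had a log2 change of -0.42 (SE 0.28, adjusted p = 0.0718) and CCDC80 of -0.67 (SE 0.19, adjusted p = 0.000227), while LINC00341 had -0.03 (SE 0.17) and SYNE3 -0.07 (SE 0.14), in the authors' deposited table.

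Readthrough regions were listed for 8 members, of which 3 were higher and 2 lower in the knockdown by an adjusted p below 0.05 of the authors' deposited table of DoG regions. Among all 2014 regions, 12.7% were raised and 16.1% lowered. The region past LINC01605 fell most, with a log2 change of -2.46 (SE 0.20, adjusted p = 1.45e-33), 5.51-fold lower, in the authors' deposited table. Its gene fell by 1.64. The region past LINC01138 had -0.52 (SE 0.18, adjusted p = 0.00224), near the -0.47 of its gene. In these 2 cases region and gene were both lower. The mean normalized count of the region was 158 for LINC01605 and 192 for LINC01138, against 135 and 51.7 for the genes. Only the regions of LINC00472 (1188 against 1751) and LINC01000 (262 against 458) had a lower mean than their gene among the members. Region lengths are not known, and regions and genes may have been normalized separately. These means therefore do not compare the levels of region and gene. Whether the reads of a region continue from its gene was not tested.

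The 3 raised regions belonged to genes that were not past the threshold. The region of LINC00654 had a log2 change of 0.70 (SE 0.24, adjusted p = 0.000848) in the authors' deposited table, against 0.34 (SE 0.26, adjusted p = 0.122) for the gene. The region of LINC00472 had 0.36 (SE 0.10, adjusted p = 0.000999), against -0.05 (SE 0.12) for the gene. The region of LINC00960 had 0.36 (SE 0.18, adjusted p = 0.0378), against -0.05 (SE 0.17) for the gene. ZNF717 overlaps LINC00960 and the stretch past its end on the opposite strand, with a log2 change of 0.29 (SE 0.13, adjusted p = 0.0336) in the authors' deposited table. The strand setting of the counting is not stated in the labels, so reads of ZNF717 and of this region cannot be told apart. Within 10 kb past LINC00654, LINC00472, LINC01355, LINC01138 and LINC01605 no other gene with a mean of at least 10 was annotated. Past LINC00094, BRD3 lies on the opposite strand, with a log2 change of 0.00 (SE 0.10).

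The difference between region and gene was tested over the 1798 regions with a gene row of the same name, as the difference of log2 fold changes over the root of the summed squared SE with Benjamini-Hochberg adjustment. Of all of them, 4.06% lay above their gene and 4.62% below it. The deposited changes of region and gene are shrunken toward 0, and not necessarily to the same degree. The part of this in the differences was not tested. None of the 8 members' regions passed by this test, and 2 had an unadjusted p under 0.05. LINC00472 had a region-minus-gene difference of 0.41 (SE 0.16, 95% interval 0.10 to 0.72, adjusted p = 0.0914), and LINC01605 had -0.83 (SE 0.30, -1.41 to -0.24, adjusted p = 0.0617). Both passed when the errors of region and gene, which come from the same libraries, were taken as correlated at 0.5 (adjusted p = 0.00273 and 0.00118). For LINC00654 and LINC00960 the differences of 0.37 (-0.32 to 1.05) and 0.40 (-0.09 to 0.89) were within their error. The remaining 4 differences ran from -0.27 for LINC00094 to 0.01 for LINC01000. The ninth LINC region is that of LINC01444, whose gene has a mean of 38.1 and is no member. It had a log2 change of -1.18 (SE 0.14, adjusted p = 1.42e-16), against -0.52 (SE 0.33, adjusted p = 0.0441) for the gene, in the authors' deposited tables. LINC01443 overlaps LINC01444 and the stretch past its end on the opposite strand, with -0.49 (SE 0.34, adjusted p = 0.0574) there. Without a known strand setting, reads of LINC01443 and of this region cannot be told apart. The mean of the LINC01444 region was 272, against 38.1 for the gene, with the same limit that region length and normalization are not known.

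**Figure D3:**
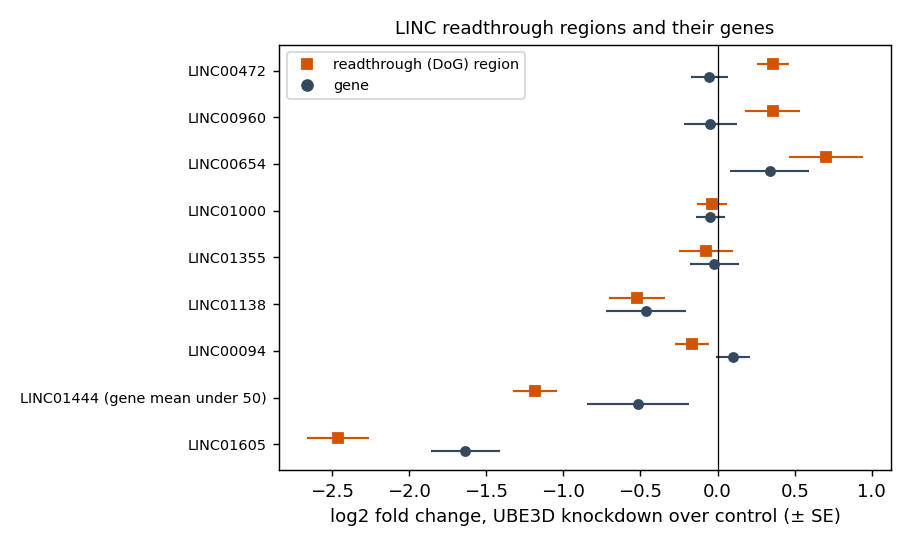
Squares give the readthrough region and circles the gene for the 9 LINC names in both tables, as the authors' deposited log2 fold change, UBE3D knockdown over control, with the SE as the bar. The regions of LINC01605 and LINC01444 lie farther below 0 than their genes (-2.46 against -1.64 and -1.18 against -0.52), and those of LINC00472, LINC00960 and LINC00654 lie above 0. These values are shrunken, and not necessarily equally for region and gene.

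Position was described next, since the rule did not use it. A gene with a mean of at least 50 lay within 50 kb of 38 of the 53 members with coordinates, counted between gene bodies. The nearest was upstream on the same strand for 15 members, overlapped 13 and started divergently from 6. Of the 9 changed members 4 had such a neighbour, and for 1 of them, LINC01224, the neighbour had changed, in the same direction. Of the 34 members with a neighbour that did not pass, 7 had a changed neighbour (20.6%). That is near the 18.5% of all genes with the minimum mean that were past the threshold in either direction.

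LINC01224 lies 3.67 kb upstream of ZNF91, a KRAB zinc finger gene that represses retroelements, on the same strand. ZNF91 had a log2 change of 0.78 (SE 0.16) in the authors' deposited table, and ZNF675, 109.6 kb away on the other side, had 0.74 (SE 0.20). The pseudogene IPO5P1 (0.78, SE 0.16) was raised as well, while ZNF724P (0.36, SE 0.22, adjusted p = 0.0672) was not past the threshold. So 3 of the 4 genes with a mean of at least 50 within 200 kb were raised beside LINC01224, against 7.19% of all genes with that mean. Zinc finger genes of this cluster have close paralogs, so their counts are uncertain to that extent. LINC00704 overlaps LINC00705 on the opposite strand, and LINC00705 had a log2 change of -1.91 (SE 0.56, adjusted p = 6.19e-05) at a mean of 18.8 in the authors' deposited table. Without a known strand setting the reads of this antisense pair cannot be told apart. The nearest abundant genes of LINC01605 lie more than 100 kb away, and of these ZNF703, which encodes a transcriptional corepressor, had -0.70 (SE 0.22, adjusted p = 0.000732) and ERLIN2 -0.11 (SE 0.12) in the authors' deposited table.

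LINC00294 overlaps CSTF3, which encodes a subunit of the cleavage stimulation factor, on the opposite strand, and TCP11L1 on the same strand. CSTF3 had a log2 change of 0.18 (SE 0.14, adjusted p = 0.264) and TCP11L1 of -0.18 (SE 0.11, adjusted p = 0.189) in the authors' deposited table. Neither was past the threshold, while LINC00294 was lowered. Reads of the overlapping loci could be split between LINC00294 and TCP11L1 and, without a known strand setting, CSTF3. Among members that did not pass, LINC01578 (known as CHASERR, a repressor of the adjacent CHD2) had a log2 change of -0.05 (SE 0.11), and CHD2, 0.488 kb downstream, had -0.25 (SE 0.11, adjusted p = 0.0477) in the authors' deposited table. LINC00941 had -0.25 (SE 0.21, adjusted p = 0.22), and CAPRIN2, which starts 0.216 kb away in the other direction, had -0.45 (SE 0.13, adjusted p = 0.000693). LINC00472 carries MIR30A within its body, and the row of that name had 0.72 (SE 0.45, adjusted p = 0.0211) in the authors' deposited table, a value of the hairpin gene in total RNA and not of a mature miRNA. OGFRL1, which faces LINC00472 from 35.4 kb away, had -0.12 (SE 0.14).

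**Figure D4:**
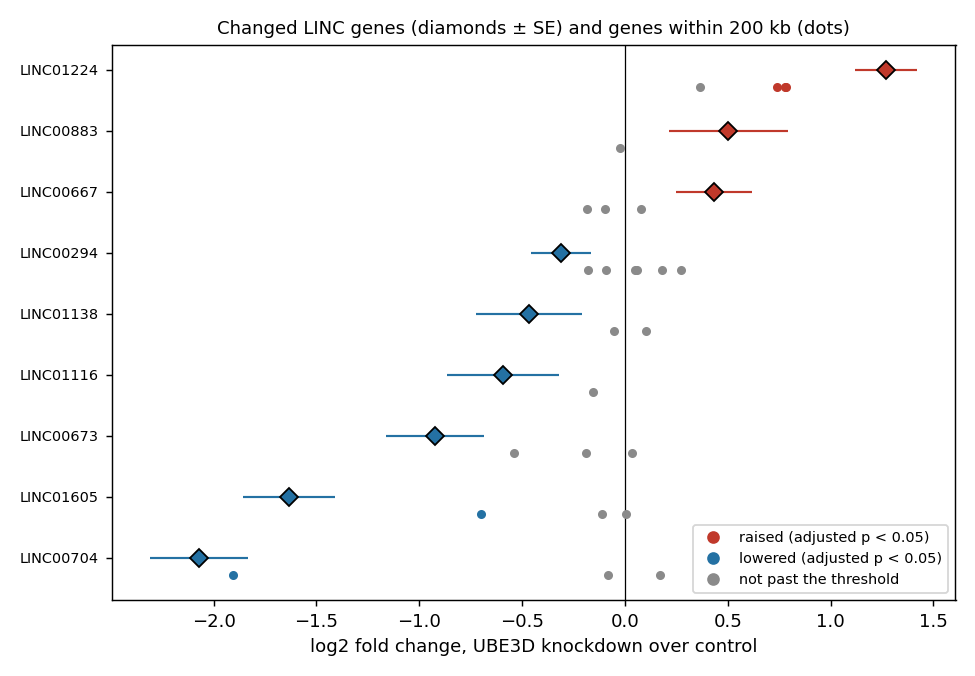
Diamonds give the 9 changed LINC genes as the authors' deposited log2 fold change, UBE3D knockdown over control, with the SE as the bar, and dots below each give the genes with a mean of at least 10 within 200 kb. Raised neighbours stand beside LINC01224 and lowered ones beside LINC01605 (ZNF703, -0.70) and LINC00704 (LINC00705, -1.91), while those of the other 6 genes are not past the threshold.

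Readthrough into members was looked at from the other side as well. For 4 members, all of them not past the threshold, the nearest upstream gene on the same strand had a DoG region. The region past HNRNPC, 2.24 kb before LINC00641, was higher (log2 fold change 0.33, SE 0.13, adjusted p = 0.018), and LINC00641 itself had 0.09 (SE 0.15) in the authors' deposited tables. The regions past KMT2E-AS1, ZNF506 and HNRNPR, before LINC01004, LINC00663 and LINC01355, were not past the threshold. Transcripts were also searched, on their own strand, for 2 words of 7 letters taken from an earlier scan of these data. GATTGAA stood in 13 of the 51 members (25.5%), against 28.1% of the 11510 genes with a transcript. Of these 13, none fell and 1 rose, LINC00883, with log2 values from -0.16 to 0.50. Among all genes with the word, 5.65% were raised and 17.9% lowered, beside 7.19% and 11.3% of all genes with the minimum mean. As the words came from a scan of these data, such shares are no independent test of them. CTTATCT stood in 12 members (23.5%), against 25.9% of genes, and of these 12 members 1 rose and 2 fell. Among all genes with that word, 9.88% were raised and 11.8% lowered. Longer transcripts hold more words of any kind, and the hairpin sequences are nowhere stated in the sources used here.

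Well-known long noncoding RNAs under other symbols moved both ways. Of 43 measured genes in a list of 51, 5 were raised (11.6%) and 6 lowered (14%) by an adjusted p below 0.05 of the authors' deposited table. All rows gave 4.62% and 7.93%, and rows reaching the minimum mean of 50 gave 7.19% and 11.3%. The list's means ran from 8.16 upward with a median of 246, against a median of 90.4 over all rows. The second background is therefore the closer one, and the list's shares stand less far from it. The median log2 value of the list was 0.04, against -0.03 over all genes. NEAT1, the scaffold of paraspeckles, had -0.82 (SE 0.15, adjusted p = 1.87e-07), while its neighbour MALAT1, a nuclear speckle RNA, had -0.10 (SE 0.15, adjusted p = 0.59). UCA1, first described in bladder cancer, rose by 1.17 (SE 0.15), and BCYRN1, a small cytoplasmic RNA with many related copies, by 1.88 (SE 0.32), in the authors' deposited table. LUCAT1 (-0.67, SE 0.20), OIP5-AS1 (-0.44, SE 0.15), ZFAS1 (-0.41, SE 0.14) and LINC-PINT (-0.31, SE 0.12) were lower and SNHG7 (0.41, SE 0.16) higher in the authors' deposited table. Under the stricter Wald test on deposited values 4 of these 11 calls were left.

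The exosome, its adaptors and partner exonucleases, which remove many noncoding transcripts, mostly stayed below the threshold. Of 27 measured genes in a list of 30, 1 was raised and 1 lowered (3.70% each) in the authors' deposited table, and the median log2 value was 0.02. The same backgrounds were 4.62% and 7.93% for all rows, and 7.19% and 11.3% for rows reaching the minimum mean. The lowest mean in this list was 68.1, so the second pair is the matched one. The raised gene was EXOSC1, a cap subunit of the exosome (0.45, SE 0.18, adjusted p = 0.00714). The lowered gene, MPP6 (-0.54, SE 0.13), carries the symbol of a membrane scaffold gene, and the exosome factor sometimes called by that name is MPHOSPH6 (0.16, SE 0.14, adjusted p = 0.322). Without MPP6, 1 of 26 was raised and none lowered. The catalytic subunits DIS3 (0.01, SE 0.13) and EXOSC10 (0.01, SE 0.13) and the helicase gene SKIV2L2 (0.02, SE 0.11) were not past the threshold by the authors' deposited table, nor was XRN2, the exonuclease of transcription termination (0.13, SE 0.13, adjusted p = 0.413).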

How the data were processed

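RNA without its ribosomal part was reverse transcribed from random primers and sequenced in pairs with strand kept, per the labels' protocols. Tools named in the submitters' processing notes are STAR 2.5.2b, cutadapt 1.8.1 and DESeq2, with build hg38. The annotation, the counting tool and its strand setting, and how DoG regions were called, are not stated there. The deposited tables hold, per the file headers, a mean normalized count (a signal over the libraries), a log2 fold change of knockdown over control (direction from the deposited table's name) with its SE, and p-values with adjusted p-values; the authors also deposited a TRUE/FALSE mark, not used here. Calls are the authors' deposited adjusted p-values under 0.05.

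Positions, types, exon unions and transcripts came from GENCODE 29 (GRCh38), matched by symbol or by the current symbol in RefSeq (GRCh38.p14) for 51 of 55 members; 2 more were placed by RefSeq alone, and 2 share a current symbol with another row. LINC00941 has 2 GENCODE entries, whose exons were joined. The region-minus-gene test was tried on simulated data with independent errors and no shrinkage. How it behaves on shrunken changes of region and gene from the same libraries was not tested. Wald tests used the deposited log2 fold change over SE, adjusted over all rows. Members, lists and the rule for naming genes (members past the threshold, with a DoG row, at the highest level per kb or next to the limit, list genes by p-value, and neighbours) were chosen with earlier results of these data known. Upstream regions and the removal of MPP6 were chosen after seeing values. Python 3.11.15, numpy 2.4.6, pandas 2.3.3, scipy 1.17.1 and matplotlib 3.10.9 were used.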

Additional observations from a re-analysis of the deposited data

How the results depend on the processing

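The 3 raised and 6 lowered members became 1 and 3 at an adjusted p under 0.01, 1 and 3 in the Wald test of the deposited values, and 1 and 3 in that test after all values were shifted to centre on 0. The Wald test uses the shrunken changes and is stricter than the authors' test. How much of the loss comes from this was not tested. The 6 lowered members became 3 at a minimum mean of 100, and without a minimum 5 LINC genes were raised and 17 lowered. Of the members' regions, 2 differed from their gene with errors correlated at 0.5, and 2 at an adjusted p under 0.1, against none in the test as reported. Changed members with a changed neighbour numbered 2 within 200 kb and 2 with neighbours of a mean of at least 10. Calls in the list of other long noncoding RNAs fell to 4 and those in the exosome list to 1 in the Wald test, and to 1 without MPP6. For the other settings in which these counts, the median and the poly(A) signal were recomputed, the 15 values stayed within 1.5 times the reported count or, for the median, within the median SE. No paired analysis was possible because the files hold no values per library, and leaving out a replicate was not run for the same reason. Depth is unknown, so the SE alone limits what could be detected.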

Other observations

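Of the 440 LINC genes below the mean of 50, 2 rose and 11 fell in the authors' deposited table (0.455% and 2.5%), against 1.08% and 3.24% of all genes below that mean. LINC01085 (log2 fold change 0.92, SE 0.28) and LINC01133 (0.47, SE 0.74) were the raised ones. LINC00705 (-1.91, SE 0.56), LINC00261 (-1.53, SE 0.61) and LINC01411 (-1.19, SE 0.45) had the largest falls by log2 fold change among the lowered ones in the authors' deposited table. Genes that GENCODE lists as lincRNA but that carry another symbol numbered 49 at a mean of at least 50. Of these 8 rose (16.3%) and 4 fell (8.16%), against 7.19% and 11.3% of all genes with that minimum mean. Of the 32 members of that type 3 rose and 4 fell. The median log2 fold change was 0.12 for the genes with another symbol, 0.07 for those members and 0.00 for all genes with the minimum mean.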
